A study of Mus musculus with 8 samples.

Results

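The basal cells of the mouse mammary gland were compared between day 14.5 of gestation (G) and the nulliparous state at 8 weeks of age (NP). Cells were chosen by the cluster annotation deposited with the data, as the cells of cluster C13 from the 2 G mice and of cluster C12 from the 2 NP mice that passed the quality filters of the study. This gave 1905 of the 25009 passing cells of the whole series, with 504 and 282 cells from the NP mice and 525 and 594 from the G mice. All mice were C57BL/6N females, both NP mice were in oestrus by vaginal smear, and each library came from 1 mouse. Glands were digested to single cells, and cells positive for EpCAM and negative for CD45, Ter119 and CD31, the surface proteins of blood and endothelial cells, were sorted and sequenced from the 3' end with unique molecular identifiers (UMIs). The basal cells held 4254570 and 2185803 UMIs in the NP mice and 3956414 and 4371515 in the G mice, at medians of 6046 to 6303 UMIs per cell. In the G mice 2 and 10 cells lay in C12, and 1 cell of NP mouse 2 lay in C13. With all C12 and C13 cells of each mouse used, 2692 genes were higher and 2432 lower, close to the counts given below.

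Basal cells form the outer layer of the mammary epithelium, between the luminal cells and the stroma. They make and anchor to the basement membrane, carry keratins such as Krt5 and Krt14, and hold the smooth muscle proteins with which mature myoepithelial cells squeeze milk from the alveoli in response to oxytocin. During pregnancy the luminal cells multiply and form alveoli that will secrete milk, and the basal layer comes to surround them.

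The annotated cells carried basal markers in every mouse. Krt14 had a UMI in 99.3% to 100% of the basal cells of each mouse, against 39.7% and 18.6% of the luminal cells (C1 to C11) of the NP mice and 31.03% and 26.8% of those of the G mice. The summed level of 11 basal markers was 17737 and 17556 counts per 1000000 UMIs (CPM) in NP and 26988 and 22841 CPM in G, and 481 to 824 CPM in the luminal cells. Basal cells made up 23.7% (95% exact binomial interval 21.9 to 25.6) and 14.2% (12.7 to 15.8) of the epithelial cells (C1 to C15) of the NP mice and 20.5% (18.9 to 22.1) and 22.9% (21.3 to 24.6) of those of the G mice. The shares of the stages overlapped, and with 2 mice against 2 an exact permutation test cannot give a p below 0.33. The intervals cover counting error only.

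UMIs of luminal genes were present in the basal sums, and the median share was higher in NP, over genes that differ in part between the stages. Over genes that mark luminal cells, the median basal level was 16.4% and 18.3% of the luminal level in the NP mice and 2.44% and 2.68% in the G mice. Genes entered at 20 CPM or more in the luminal cells of the mouse, 9 in each NP mouse and 13 in each G mouse. The milk genes Wap and Glycam1 entered in G only. Measured on the same genes of each stage with 1 left out (Tspan8), the share in G was 2.38% and 2.56% in basal cells and 1.06% to 2.81% in immune, fibroblast and endothelial cells. In NP it was 15.4% and 17.4% in basal cells against 7.87% and 6.01% in fibroblasts. In NP a minority of the basal cells carried much of it. The median NP basal cell held luminal-only UMIs at 3.67% and 4.05% of the median luminal cell of its mouse, while 103 and 60 cells were above 10%, with a median of 12197 and 7253 UMIs against 5752 and 6057 in the cells below. In each G mouse 3 cells were above 10%. The cut was at a lower level in NP. The median luminal cell held luminal-only UMIs at 3163 and 2986 CPM in NP and 86418 and 42680 CPM in G. The numbers of cells above the cut are thus not compared between the stages. Leaving these cells out removed 20.4% and 21.3% of the NP basal cells and 0.571% and 0.505% of the G basal cells. Because luminal UMIs were present, the level in luminal cells is set beside the genes, and counts are also given without the cells above 10%. The study removed a cluster of suspected doublets that came from G mice, and no doublet caller was run here.

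Of 11074 genes tested, 2722 were higher in G (24.6%) and 2455 lower (22.2%), by edgeR's quasi-likelihood test on UMIs summed per mouse at a Benjamini-Hochberg adjusted p of 0.05. The median log2 fold change over all genes was 0.01. Counts of the gene lists below are to be read beside the shares of 24.6% and 22.2%. Of 3634 genes with a positive log2 fold change and at least as high in basal as in luminal cells of G, 1919 were called higher (52.8%). Of 3240 genes with a negative log2 fold change and at least as high in basal as in luminal cells of NP, 1572 were called lower (48.5%). The direction of the change and the level in the stage where a gene is high entered that choice. Both raise the shares, which are not read against those over all genes. More than 4-fold changes were called in 434 genes that rose and 227 that fell. DESeq2 made fewer calls on the same sums, 1705 higher and 1418 lower, and every one of them was also called by edgeR in the same direction. Without NP mouse 1 edgeR called 1752 and 1473.

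The largest rises among genes at least as high in basal as in luminal cells included both subunits of a nitric oxide receptor and a cell cycle inhibitor. Gucy1a3 and Gucy1b3 encode soluble guanylate cyclase, the nitric oxide receptor of smooth muscle, and lie near each other on mm10 at chr3:82092427-82145789 and chr3:82032006-82074689. Gucy1a3 was at 0.470 and 0 CPM in the NP mice and at 29.3 and 16.01 CPM in the G mice. Its 2 UMIs in NP against 186 in G gave a ratio of 71.9, with a 95% counting interval from 19.6 to 598. Gucy1b3 rose from 3.29 and 1.37 CPM to 35.9 and 27.2 CPM, a log2 fold change of 3.67 ± 0.32 (SE, adjusted p = 2.3e-07). For both subunits the G mice lay above the NP mice.

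Cdkn1c encodes the cell cycle inhibitor p57. Its levels were 7.05 and 6.40 CPM in the NP mice and 165 and 147 CPM in the G mice, a log2 fold change of 4.61 ± 0.19 (SE, adjusted p = 5.9e-11). It had a UMI in 4.17% and 3.55% of NP basal cells and in 54.7% and 54.7% of G basal cells, against 8.49% and 7.70% of the G luminal cells. When every cell was reduced to 2000 UMIs, those basal shares became 1.39% and 1.42% in NP and 25.9% and 25.8% in G. The rise was thus seen in a large share of the basal cells of both G mice.

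Other large rises began from low NP levels. Opcml, a cell adhesion protein held in the membrane by a lipid anchor, rose from 1.18 and 1.37 CPM to 59.4 and 60.6 CPM (5.65 ± 0.28). Its UMIs were in 0.992% and 1.06% of NP basal cells and 32.0% and 32.3% of G basal cells, and its luminal level in G was 0.394 and 0.503 CPM. Spock3, a secreted proteoglycan, rose from 1.18 and 3.20 CPM to 61.7 and 50.6 CPM. Ntrk3, the receptor of neurotrophin 3, rose from 9.17 and 13.3 CPM to 146 and 122 CPM. Capn6 (4.46), Olfml2a (4.22), Fbxl22 (4.04), Ribc1 (3.83), Frem2 (3.78), which encodes a basement membrane protein, and the collagen gene Col23a1 (3.67) completed the 12 named by rule, which asked that the mice of the groups not overlap.

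**Figure D1:**
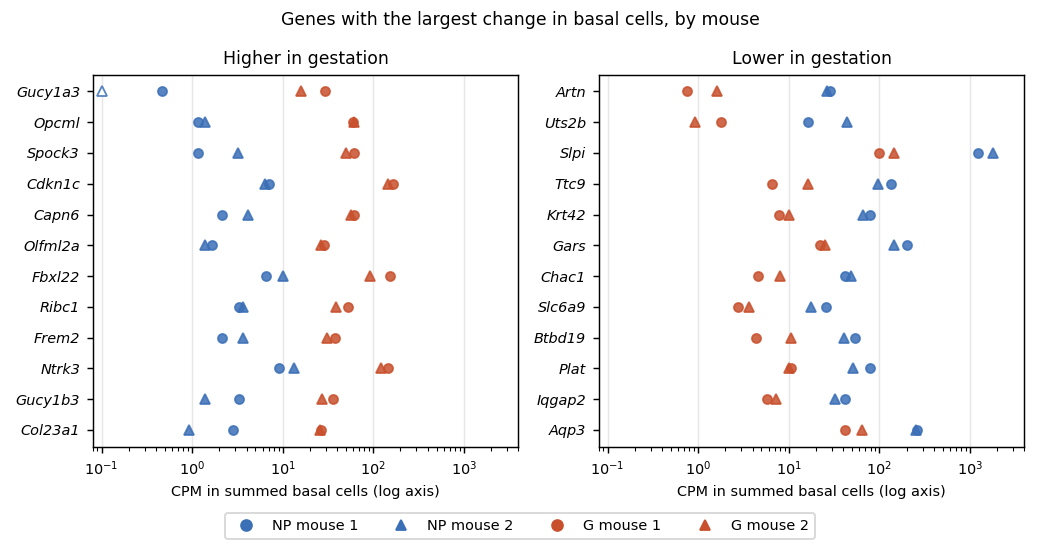
Level in CPM (log axis) of the genes that rose most and of those that fell most, 12 each, among genes at least as high in basal as in luminal cells. Blue symbols are NP mice and red symbols G mice, the open triangle at the left edge stands for 0 CPM (Gucy1a3, NP mouse 2), and the stages are apart for every gene, as the rule required.

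Contractile genes rose in most cases. Of 25 tested genes of smooth muscle contraction, 19 rose, 0 fell and 6 did not pass, with a median log2 fold change of 0.91, and all 19 were at least as high in basal as in luminal cells. Mylk, the kinase that activates smooth muscle myosin, was at 425 and 467 CPM in NP and 2656 and 1842 CPM in G, a log2 fold change of 2.42 ± 0.16 (SE, adjusted p = 1.5e-08). Ppp1r14a, an inhibitor of the phosphatase that opposes this kinase, rose from 6.58 and 10.98 CPM to 99.1 and 59.7 CPM (3.36 ± 0.28). The myosin genes Myl9 (1.89 ± 0.16) and Myh11 (1.57 ± 0.15) rose with the smooth muscle actins Actg2 (1.34) and Acta2 (1.27 ± 0.15), the last from 5568 and 5357 CPM to 14200.0 and 10565 CPM. In these 6 genes G mouse 1 was the higher of the G mice. Kcnmb1, a subunit of the calcium-activated potassium channel of smooth muscle, rose by 2.06 on the log2 scale.

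Some contractile genes moved little. Tagln (0.45), Lmod1 (0.38), Tpm1 (0.33) and Cnn2 (0.31) passed with all cells and did not pass without the cells high in luminal-only genes, which left 15 genes higher and 1, Ppp1r12b, lower. Leaving out NP mouse 1 left 13 higher. The oxytocin receptor Oxtr was at 52.2 and 72.7 CPM in NP and 74.8 and 62.7 CPM in G, values that overlapped (0.25 ± 0.17, adjusted p = 0.24).

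Promoters of the contractile genes were searched for the CArG box, the site bound by serum response factor (Srf), on both strands from 250 bases before to 50 after the start, in RefSeq promoters of GRCm38.p6. The search did not cover every chromosome. Promoters were matched for 22 of the 27 listed genes, and 4 genes held the box (Cnn2, Myl6, Myl9 and Srf), against 488 of the 27025 genes searched (1.81%). The share was 2.42% among genes that rose, 1.29% among genes that fell and 1.49% among genes tested but not called. Of the 8 named rises with a promoter, Fbxl22 held it. The 250 bases before the start are shown for Myl9 and Srf, which rose in G and stand for the contractile list, and for Fbxl22, with the box in capitals. It begins 161 bases before the start in Myl9, 82 and 62 in Srf and 222 in Fbxl22. A match describes the letters and does not show binding.
Myl9, chr2:156775214-156775463, plus strand: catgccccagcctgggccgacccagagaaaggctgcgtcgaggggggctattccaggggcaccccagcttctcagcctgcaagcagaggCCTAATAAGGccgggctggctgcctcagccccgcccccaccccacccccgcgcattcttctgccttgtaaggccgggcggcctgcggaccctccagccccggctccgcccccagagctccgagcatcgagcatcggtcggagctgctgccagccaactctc
Srf, chr17:46556163-46556412, minus strand: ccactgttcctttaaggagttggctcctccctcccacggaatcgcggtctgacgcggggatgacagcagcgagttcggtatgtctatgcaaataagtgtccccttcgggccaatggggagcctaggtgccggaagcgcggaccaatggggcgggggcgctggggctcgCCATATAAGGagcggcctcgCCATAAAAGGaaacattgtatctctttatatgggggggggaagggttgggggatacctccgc
Fbxl22, chr9:66514594-66514843, minus strand: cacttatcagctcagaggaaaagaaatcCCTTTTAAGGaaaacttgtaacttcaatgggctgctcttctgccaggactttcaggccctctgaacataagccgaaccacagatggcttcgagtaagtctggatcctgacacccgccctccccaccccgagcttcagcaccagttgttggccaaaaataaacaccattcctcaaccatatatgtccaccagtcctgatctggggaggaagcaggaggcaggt

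Genes of the basement membrane, the sheet on which basal cells sit, rose almost throughout. Of 19 tested, 18 rose and 1 fell, with a median log2 fold change of 1.12. The type IV collagen genes Col4a1, from 216 and 311 CPM to 1153 and 1136 CPM, and Col4a2 rose by 2.21 ± 0.16 and 2.25 ± 0.15. Nid1, which links the collagen and laminin networks, rose by 2.40 ± 0.17. Among laminin chains Lama1 rose from 5.17 and 5.03 CPM to 58.4 and 39.6 CPM (3.34 ± 0.27), Lamc1 by 1.91 and Lamb1 by 1.61. Lama3 and Lamb3 rose less, by 0.69 and 0.49. Lama5, higher in luminal than in basal cells, fell (-0.55 ± 0.19, adjusted p = 0.028). Without the cells high in luminal-only genes 16 rose and 0 fell, and leaving out NP mouse 1 left 13 higher.

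Of 27 interstitial matrix genes 21 rose and 1 fell. Thbs1, which encodes thrombospondin 1, rose from 949 and 822 CPM to 3574 and 3646 CPM (2.12 ± 0.13). Sparc rose by 1.38, Mgp by 1.64, Matn2 by 3.16 and Col9a1 by 3.56. Tnc, which encodes tenascin C, fell from 20.2 and 17.4 CPM to 1.26 and 1.83 CPM (-3.49 ± 0.35, adjusted p = 1.1e-06). Without cells above 1.5 times the median UMI count of their mouse 14 rose and 3 fell. Several of these genes are also fibroblast genes, and 5 of 6 fibroblast markers rose, their sum going from 177 and 262 CPM to 885 and 680.3 CPM. Most of that sum was Dcn (138 and 179 CPM in NP, 687 and 528 CPM in G). Col3a1 went from 11.5 and 34.3 CPM in NP to 93.5 and 80.1 CPM in G. Col1a2 went from 13.4 and 22.9 CPM to 50.05 and 37.7 CPM, and Col1a1 from 10.1 and 15.6 CPM to 35.6 and 22.9 CPM. Pdgfra, which defines fibroblasts, lay at 1.37 to 3.66 CPM and Lum at 2.12 to 16.2 CPM. The part of fibroblast RNA in these rises was not tested. The sum of 7 pericyte markers, of which 2 rose and 1 fell, lay at 11.9 to 41.4 CPM.

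Of 18 integrin and adhesion genes 4 rose and 5 fell, shares near those over all genes (24.6% and 22.2%). Itga6 rose from 387 and 397 CPM to 775 and 822 CPM (1.11 ± 0.12), and Itga1, a collagen receptor subunit, by 1.89. Itgb4, the partner of integrin alpha 6 in hemidesmosomes, fell from 61.8 and 55.4 CPM to 16.7 and 23.1 CPM (-1.47 ± 0.18, adjusted p = 9.2e-06), and Itgb1 did not pass (-0.16). Of 17 matrix proteases and inhibitors 11 rose and 3 fell. Adamts9, which cleaves proteoglycans, rose by 3.15 ± 0.17. The plasminogen activator genes Plat, from 78.97 and 50.8 CPM to 10.6 and 10.1 CPM, and Plau (-1.20) fell, as did Timp1, an inhibitor of metalloproteases (-1.60).

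Genes of basal identity went both ways, with 10 of 23 higher and 9 lower. Krt14 was at 2907 and 2698 CPM in NP and 3232 and 3129.8 CPM in G (0.27 ± 0.12, adjusted p = 0.072). Krt5 (-0.62 ± 0.13), Krt17 (-0.70 ± 0.13) and Krt15 (-0.97 ± 0.14) fell, and so did Trp63, which encodes the basal transcription factor p63 (-0.40, adjusted p = 0.039). Mef2c, a transcription factor of muscle genes, rose from 6.82 and 14.2 CPM to 97.6 and 64.5 CPM (3.17 ± 0.28), and Snai2 (0.98) and Sox9 (0.83) rose less. The keratin gene Krt42 was among the 12 largest falls (-2.93).

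In the FGF and IGF list 12 of 21 genes rose and 3 fell, and 13 rose and 5 fell without the cells high in luminal-only genes. Igfbp5, a secreted IGF-binding protein, rose from 777 and 747 CPM to 2862 and 2895 CPM (2.01 ± 0.12). Igfbp4 rose from 37.8 and 42.5 CPM to 249 and 249.6 CPM (2.74 ± 0.14) and Igfbp2 by 2.13, whereas Igfbp7 (-1.16) and Igfbp6 (-1.38) fell. Spry2 (2.20), Spry1 (1.92) and Dusp6 (1.88), inhibitors of receptor kinase signalling, were among the genes of the list that rose. In the EGF family Errfi1, an inhibitor of the EGF receptor, rose from 473 and 422 CPM to 2545 and 2573 CPM (2.60 ± 0.13) and the ligand Nrg1 by 1.86. There 4 of 13 genes rose and 5 fell, beside 24.6% and 22.2% over all genes. Without the cells high in luminal-only genes 1 was lower.

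Of 33 Wnt pathway genes 12 rose and 8 fell, against 24.6% and 22.2% over all genes, so that the share of falls was near the background. The ligand Wnt6 rose from 7.29 and 6.40 CPM to 49.5 and 44.6 CPM (2.85 ± 0.22), and the secreted inhibitors Wif1 (1.78) and Sostdc1 (2.31) also rose. Lgr5 (-0.96) and Procr (-0.95), used as markers of basal stem cells, fell. Of 16 Notch pathway genes 5 rose and 6 fell, to be read beside the same shares over all genes. Among the falls were the ligand Dll1 (-0.92) and Lfng, which modifies Notch receptors (-2.11). Among hormone receptors 5 of 13 rose and 4 fell, the rises including those for mineralocorticoid (Nr3c2, 1.47) and glucocorticoid (Nr3c1, 0.90). Of 11 glucocorticoid-responsive genes 7 rose, such as Per1 (2.36), and Mt2 fell (-1.03).

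Cell division genes rose in G basal cells. Of 30 tested 24 rose and 2 fell, with a median log2 fold change of 3.43, and each of the 24 was higher in the luminal cells of G. Top2a, which untangles DNA in dividing cells, was at 3.996 and 6.86 CPM in NP and 61.7 and 43.7 CPM in G, and at 158 and 166 CPM in G luminal cells. It had a UMI in 1.98% and 2.13% of NP basal cells and 18.1% and 13.6% of G basal cells, against 47.9% and 42.9% of G luminal cells. Thinned to 2000 UMIs, the basal shares were 0.794% and 0.709% in NP and 9.14% and 6.40% in G. Without cells above 1.5 times the median UMI count of their mouse 23 genes rose, and with the luminal profile subtracted 22. Pcna (-0.72) and Mcm7 (-1.03), of DNA replication, fell.

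Of 26 immediate early and heat shock genes 18 rose and 0 fell, and 8 of the 18 were at least as high in basal as in luminal cells. Nr4a1 rose from 31.3 and 24.7 CPM to 316 and 180.03 CPM and Hspa1a from 34.1 and 16.01 CPM to 311 and 105 CPM. In both G mouse 1 was the higher, and without it 15 of the genes rose and 2 fell, the median log2 fold change going from 1.09 to 0.60. These genes are known to respond to tissue digestion, whose part was not tested.

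The steepest falls among genes at least as high in basal as in luminal cells included those of 3 secreted proteins. Artn, a ligand of the GDNF family, fell from 28.7 and 26.5 CPM to 0.758 and 1.60 CPM (-4.40 ± 0.35, adjusted p = 7.6e-08). Slpi, a secreted inhibitor of leukocyte proteases, was at 1232 and 1801 CPM in NP and 98.1 and 145 CPM in G (-3.56 ± 0.20, adjusted p = 2.1e-09). Its UMIs were in 75.8% and 76.95% of NP basal cells and 16.4% and 22.2% of G basal cells, against 14.04% and 13.1% of G luminal cells. Uts2b, which encodes a urotensin-related peptide, fell from 16.5 and 43.9 CPM to 1.77 and 0.915 CPM, and its NP mice lay far apart. Aqp3, a water and glycerol channel, fell from 259 and 253 CPM to 41.5 and 63.8 CPM. Ttc9 (-3.25), Btbd19 (-2.59) and Iqgap2 (-2.41) were also among the 12. Of 19 chemokine and cytokine genes 9 fell and 6 rose. Cxcl14 fell from 3604 and 3874 CPM to 1599 and 1951 CPM (-0.99 ± 0.13), and Il6 rose by 2.13.

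Gars, Chac1 and Slc6a9 of the 12 encode glycyl-tRNA synthetase, an enzyme that breaks down glutathione and a glycine transporter. Gars fell from 201 and 144 CPM to 22.2 and 25.2 CPM (-2.78 ± 0.17, adjusted p = 3.5e-09), Chac1 from 41.8 and 48.95 CPM to 4.55 and 8.01 CPM and Slc6a9 from 25.6 and 17.4 CPM to 2.78 and 3.66 CPM. Related genes were then listed, a choice made after these values were seen, and the lists hold the genes that prompted them. Of 20 cytosolic aminoacyl-tRNA synthetase genes 0 rose and 14 fell, with a median log2 fold change of -0.96, and 13 of 19 fell with Gars left out. Nars fell from 513 and 458 CPM to 141 and 148 CPM (-1.66). Of 9 genes of serine, glycine and one-carbon metabolism 0 rose and 7 fell, among them Mthfd2, from 323 and 275 CPM to 58.6 and 75.03 CPM, Shmt2 (-1.74) and Psph (-1.78). Asns, which encodes asparagine synthetase, fell by 1.70 on the log2 scale. Of 15 genes made up of Atf4, a transcription factor of the amino acid response, and its known targets, 1 rose and 8 fell (1 and 6 of 13 with Chac1 and Slc6a9 left out), while Atf4 itself was at 628 and 565 CPM in NP and 627 and 572 CPM in G. From C6 luminal cells of NP to C10 luminal cells of G 11 of the synthetase genes fell and 3 rose. By the test of the difference, the basal change was the more negative in 7 synthetase genes and the more positive in 2. Among the serine, glycine and one-carbon genes with Asns it was the more negative in 4 and the more positive in 2. Among ATF4 and its targets it was the more negative in 1 and the more positive in 7. Of single genes, the basal change was the more negative in Psph (difference -1.55, adjusted p = 1.8e-04) and Shmt2 (-1.62, adjusted p = 4.6e-05), and the luminal one in Trib3 (3.23, adjusted p = 6.9e-06) and Mthfd2 (1.34, adjusted p = 1.1e-05).

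The letters TGATGNAA, the core of the site bound by ATF4, were searched on both strands of the same promoter windows, also after the values were seen. They were in 68 of 1866 genes that fell (3.64%), in 47 of 2067 that rose (2.27%) and in 111 of 4567 tested but not called (2.43%). Of all 27025 genes searched, tested or not, 1219 held them (4.51%). Of the 11 named falls with a promoter, Chac1 and Gars held them. The 250 bases before the start are shown for Gars, where the match, in capitals, reads on the opposite strand and begins 30 bases before the start.
Gars, chr6:55037751-55038000, plus strand: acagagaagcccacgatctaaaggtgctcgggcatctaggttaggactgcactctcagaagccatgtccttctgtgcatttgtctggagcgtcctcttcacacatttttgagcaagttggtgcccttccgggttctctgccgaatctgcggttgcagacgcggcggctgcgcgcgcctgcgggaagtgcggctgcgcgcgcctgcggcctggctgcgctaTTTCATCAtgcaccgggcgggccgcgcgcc

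Luminal genes fell in the basal sums. Of 15 listed 12 fell and 2 rose, and Krt18 fell from 1864 and 1159.8 CPM to 183 and 182 CPM. Without the cells high in luminal-only genes its log2 fold change was -1.98 in place of -2.96, and 11 of the genes were lower and 3 higher. With the luminal profile of the same mouse subtracted 12 could be tested, of which 3 were lower and 5 higher, so that the falls did not hold under that setting. Epcam encodes the sort marker, and its level is not read as a result. Of 13 genes of hormone-sensing cells 11 fell, and without those cells 7 were lower and 3 higher. With the profile subtracted 6 of them could be tested, 1 lower and 5 higher. Prlr, the prolactin receptor, fell from 198 and 221 CPM to 1.77 and 5.26 CPM, and its luminal level was 1768 and 1864 CPM in NP and 60.1 and 64.9 CPM in G. The luminal sums set beside the genes differ in make-up between the stages. Hormone-sensing C4 cells were 971 of 1623 and 1212 of 1704 luminal cells in NP. Alveolar C8 cells were 1926 of 2037 and 1818 of 1988 in G. The part of this make-up in the luminal levels was not tested. Pgr, the progesterone receptor, was lower with all cells (-0.99) and higher without those cells (1.28). Prlr and Pgr belong to the genes by which those cells were left out, so that their levels without them were set in part by that choice.

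**Figure D2:**
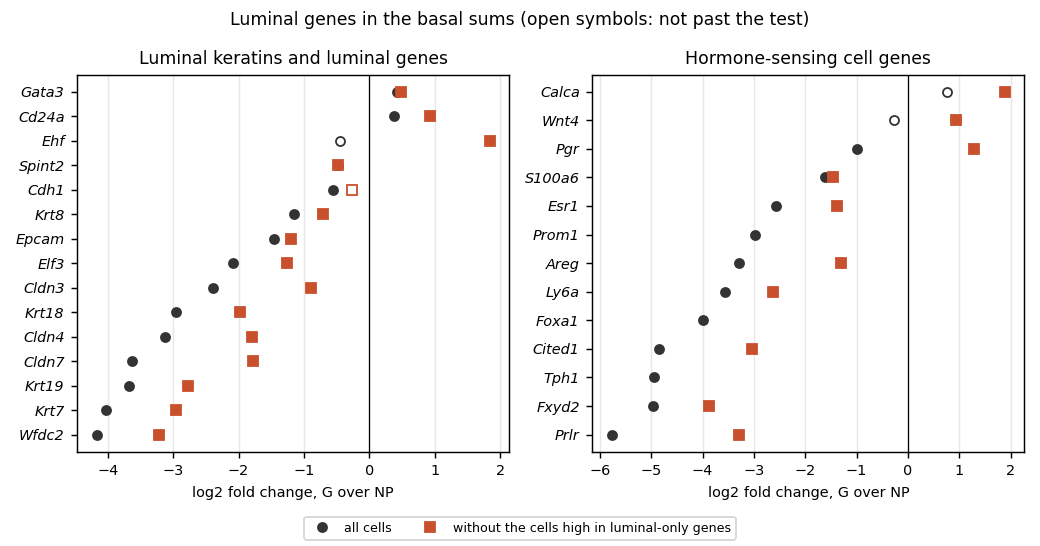
Log2 fold change (G over NP) of luminal and hormone-sensing genes in the basal sums with all cells (dark circles) and without the cells high in luminal-only genes (red squares). Open symbols did not pass the test; Krt18 moves from -2.96 to -1.98 and Pgr from -0.99 to 1.28.

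Of the genes named with a higher luminal level, Fam25c, Dmbt1 and Tspan1 had 442, 349 and 150 UMIs in the NP basal sums and 0 in G, at least 191-fold, 150.4-fold and 64.7-fold lower with a limit of 3 counts over the group. Fgb had 338 UMIs against 2, a ratio of 219 (95% counting interval 60.03 to 1812), and Nupr1 fell from 665 and 629 CPM to 11.6 and 8.46 CPM. In NP these 5 genes were at 7.81% to 16.3% of their luminal level. UMIs of milk genes were more numerous in the basal sums of G. Csn2, which encodes beta-casein, had 2 UMIs in NP and 4057 in G, Csn1s2a was higher by 8.04, Csn1s1 by 5.92 and Wfdc12 by 5.56, and Glycam1 had 0 UMIs in NP and 484 in G, at least 125-fold higher. A Csn2 UMI was found in 97.3% and 88.7% of G basal cells, and the basal level was 2.04% and 1.74% of that in the alveolar cells of C8. In cells outside the epithelium of the same mice the share was 98.3% and 84.9% (C17, annotated by the study as immune cells), 94.7% and 77.4% (C18, fibroblasts) and 100% and 84.3% (C19, endothelial cells), from 31 to 86 cells each. The median cell held 6201 and 6060.0 UMIs in basal cells and 6495.5 and 5561.5 UMIs in C17. The Csn2 level was 635 CPM and 354 CPM in basal cells and 624 CPM and 347 CPM in C17. It was 638 and 299 CPM in C18 and 587 and 615 CPM in C19. The basal share is not read as expression of Csn2, and its source was not tested. With the luminal profile subtracted 2 milk protein genes could be tested, of which Csn1s1 did not pass and Csn3 was lower in G. The milk genes Wap and Glycam1 were among the genes that set the share subtracted in G, so that setting cannot decide on milk genes.

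Whether a change differed between basal cells and the luminal secretory lineage was tested in 1 fit with a term for the mouse, with C6 luminal progenitors of NP and C10 alveolar progenitors of G on the luminal side. These are different luminal states, so that stage and state cannot be told apart there. Of 11326 genes 1911 changed more positively in basal cells (16.9%) and 1704 more negatively (15%). Of the named genes at least as high in basal cells, 5 of the 12 rises (Cdkn1c, Fbxl22, Olfml2a, Ribc1 and Col23a1) and 4 of the 12 falls (Slpi, Iqgap2, Chac1 and Aqp3) differed, and in Chac1 and Aqp3 the luminal fall was the steeper. Ntrk3 did not pass (difference -0.09 ± 0.39, adjusted p = 0.89), at 0 and 0.415 CPM in C6 and 0.765 and 4.99 CPM in C10. In these luminal clusters Gucy1a3, Opcml, Spock3, Capn6 and Frem2 lay at 0 to 1.25 CPM and Gucy1b3 at 0 to 2.495 CPM. With luminal levels this low, a rise that did not pass is not read as shared with luminal cells. Col23a1 (0 to 0.604 CPM) and Olfml2a (0.829 to 1.53 CPM), which passed, were also low in these clusters, so their differences rest on few luminal UMIs. The basal change was the more positive in 16 of 27 interstitial matrix genes, 10 of 19 basement membrane genes, 12 of 21 FGF and IGF genes and 10 of 24 contractile genes. It was the more negative in 11 of 30 cell division genes. In 481 genes called in both cell types the directions were opposite, against 1955 with the same direction.

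Igfbp4 and Col11a1 were among the opposite changes. Igfbp4 rose in basal cells and fell from 14.2 and 19.5 CPM in C6 to 0.765 and 3.12 CPM in C10 (difference 5.77 ± 0.41). Col11a1, a minor fibrillar collagen gene, rose from 14.6 and 21.04 CPM to 129.7 and 137 CPM in basal cells and fell from 17.5 and 22.4 CPM to 7.65 and 2.495 CPM in luminal cells (5.13 ± 0.37). Lgals1, which encodes galectin 1, went the other way, from 794 and 983 CPM to 521 and 589 CPM in basal cells and from 20.5 and 23.2 CPM to 164 and 166 CPM in luminal cells (-3.42 ± 0.17).

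**Figure D3:**
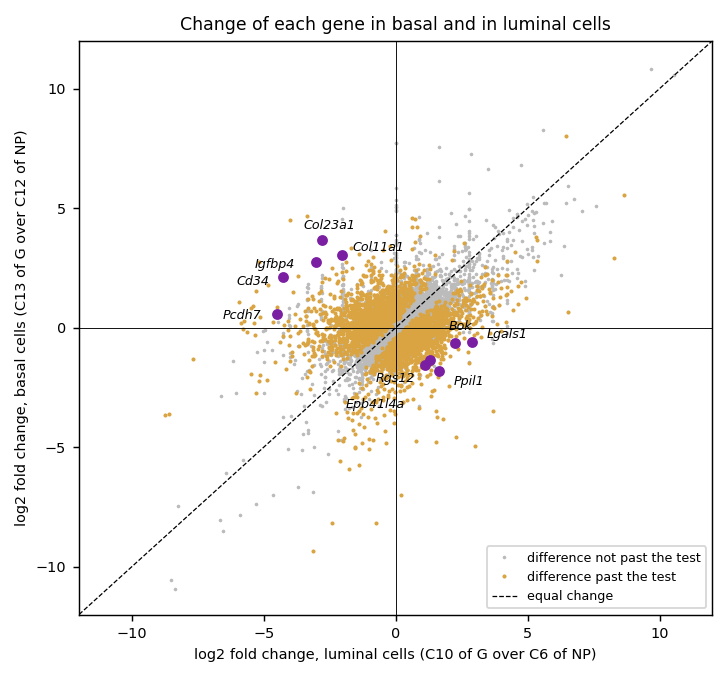
Log2 fold change of each gene in basal cells (vertical axis, C13 of G over C12 of NP) against that in luminal cells (horizontal axis, C10 of G over C6 of NP), with a dashed line at equal change. Orange points passed the test of the difference and grey points did not; purple points are the 5 genes in each direction named by rule.

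Levels in the other stages are a description only, from mice on day 6 of lactation (L; C14, 4637 and 3104 cells) and mice 11 days after natural weaning (PI; C12, 27 and 53 cells). Cdkn1c was at 20.9 and 25.5 CPM in L and Opcml at 1.14 and 1.14 CPM, below both G mice, while Ntrk3 was at 156 and 172 CPM. Mylk was at 6739.6 and 5657 CPM and Oxtr at 743 and 672 CPM in L, above both G mice. Krt15, which fell in G, was at 1640.4 and 1515 CPM in L. Slpi was at 84.4 and 22.2 CPM in L and 2509.6 and 2945 CPM in PI.

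**Figure D4:**
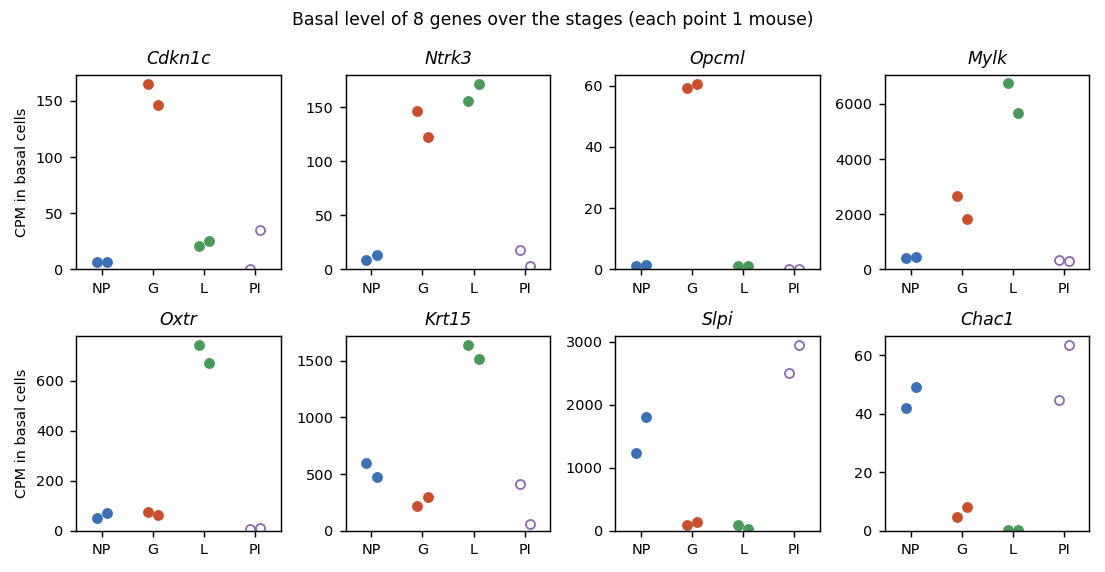
CPM of 8 genes in the basal cells of each stage, with 1 point per mouse (NP and PI from C12, G from C13, L from C14) and a vertical axis from 0 in each panel. Open PI points rest on 27 and 53 cells; Cdkn1c and Opcml are highest in G, Mylk, Oxtr and Krt15 in L, and Slpi in PI.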

How the data were processed

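Counts of UMIs per gene and cell were deposited by the authors, who made them with Cell Ranger and STAR on mm10 without normalisation between libraries. The deposited annotation gave each cell's quality flag and cluster. Of the cells, 791 had a barcode sequence that occurs in more than 1 library, and 0 of them passed the authors' filters.

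Counts were summed per mouse and cluster and tested with edgeR 4.0.16 in R 4.3.3 (filterByExpr with minimum count 10 and total 15, TMM, quasi-likelihood F-test, stage as the only term, 2 mice per stage, 2 residual degrees of freedom). DESeq2 1.42.0 was an alternative. The scripts were tested on simulated data. A standard error is the log2 fold change over the root of F. CPM values are counts over the sum of the mouse's basal UMIs, without TMM factors. Gene coordinates came from GENCODE for GRCm38 by gene ID.

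Genes were named by rule: the 12 largest rises and falls past the test with at least 20 CPM in the higher group, no overlap between mice and a basal level at least the luminal one; 5 in each direction with a higher luminal level; 5 in each direction for the difference between basal and luminal change; and members of 31 gene lists. Models named only Gm and a number or ending in Rik were passed over, and some list members are counted but not reported by name here. The members and lists were chosen with earlier results of these data known. Alternatives covered scaling, filters, tools, left-out mice, a replicate block, equal cells or depth, cells of high UMI count, subtraction of the luminal profile and other luminal partners. Leaving out cells high in luminal-only genes was chosen after seeing the data.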

Additional observations from a re-analysis of the deposited data

Results flagged for a closer look

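The change from NP to G differed between basal and luminal cells, by the test of the difference itself, in 1911 genes with the more positive change in basal cells and 1704 with the more negative. The largest positive differences on the log2 scale, basal minus luminal, were 7.03 in Col23a1, 6.87 in Cd34, 5.77 in Igfbp4, 5.54 in Pcdh7 and 5.13 in Col11a1. Col23a1, Cd34 and Pcdh7 had 0 CPM in both C10 sums, so their fitted differences depend on the prior count. The largest negative differences were -3.42 in Lgals1, -3.42 in Ppil1, -2.80 in Bok, -2.65 in Epb41l4a and -2.62 in Rgs12. Ppil1 fell in basal cells from 31.3 and 28.8 CPM to 8.09 and 8.01 CPM and rose in luminal cells from 20.8 and 17.4 CPM to 66.6 and 58.02 CPM.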

How the results depend on the processing

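Of 562 pairs of a named gene and an alternative, 560 kept their direction and call. The test for a log2 fold change above 1, given below, is left out of these pairs and of the pairs of list counts. A further 16 pairs could not be tested, 7 with the luminal profile subtracted (Csn2, Csn1s2a, Glycam1, Fam25c, Dmbt1, Tspan1 and Fgb), 5 with the filter of the study and 4 with milk genes left out. Both exceptions came with subtraction of the luminal profile, where Csn1s1 no longer passed (2.35) and Nupr1 reversed (7.70). In NP Nupr1 lay at 15.2% of its luminal level, under the 16.4% and 18.3% subtracted, so its NP sums were set to 0. For Csn1s1 the cause was not tested. Higher and lower calls numbered 1705 and 1418 with DESeq2, of which 1271 and 926 were at least as high in basal as in luminal cells. They numbered 411 and 216 in a test for a log2 fold change above 1 at an adjusted p of 0.01, of which 307 and 71 were. Leaving out 1 mouse at a time gave 1752 to 2648 higher and 1473 to 2426 lower calls, with 1263 to 1904 and 989 to 1586 at least as high in basal cells, each lowest without NP mouse 1, and the lone mouse of a stage was then assumed to vary like the other stage. With hormone-sensing clusters as the luminal side, 704 genes changed more negatively in basal cells. The replicate numbers name separate mice and do not pair them (correlation of deviations -0.02), and with a replicate block 2789 genes were higher and 2543 lower. The other alternatives left the counts over all genes within 1.5 times. Of 1054 pairs of a list count and an alternative, 931 stayed within 1.5 times. The smallest of the 4 sums, 2185803 UMIs, limits genes under about 1.37 CPM, the level of 3 counts.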

Other observations

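Over all genes 24.6% rose and 22.2% fell, and the list counts here are to be read beside those shares. Of the genes of glycolysis and hypoxia 9 of 24 rose and 5 fell in basal cells. Vegfa, a growth factor of blood vessels, rose from 99.4 and 146 CPM to 276 and 379 CPM, and Egln3 (1.64), Adm (1.49) and Bnip3 (1.38) rose, while the glycolytic enzymes Pgk1 (-0.78), Pgam1 (-0.94), Aldoa (-0.60) and Gapdh (-0.47) fell. Of interferon and antigen presentation genes 15 of 23 rose and 1 fell. Among the 15, 6 were at least as high in basal as in luminal cells. B2m rose by 1.07 and Cd74, a chaperone of class II antigen presentation, from 88.4 and 66.8 CPM to 172 and 212 CPM, beside 2 of 3 tested immune markers that rose, Cd74 included, and Ptprc at 0 to 2.29 CPM.

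Of cadherin, desmosome and gap junction genes 6 of 15 rose and 6 fell. Dsc3, a desmosomal cadherin gene, rose by 1.65, and Gjb2, which encodes a connexin, fell by 1.18 on the log2 scale. Of TGF-beta and BMP genes 7 of 22 rose and 6 fell, with Tgfbr3 at 2.13 and Id1 at -1.09. Of lipid handling and metallothionein genes 8 of 13 rose and 1 fell, with Apod at 2.41. Among the 8, 4 were at least as high in basal as in luminal cells. Of milk fat genes 7 of 18 rose and 2 fell, and of cholesterol synthesis genes 5 of 20 rose and 3 fell. In both lists 0 of the rises were in genes at least as high in basal as in luminal cells. Of luminal progenitor genes 3 of 9 rose and 4 fell, with 1 of the rises at least as high in basal cells. Of pericyte and fibroblast markers 7 of 10 rose and 1 fell, and of endothelial and immune markers 4 of 8 rose and 0 fell. Of genes of protein folding in the endoplasmic reticulum 3 of 22 rose and 3 fell, with Herpud1 at -1.52. Of ribosomal protein genes 20 of 83 rose and 16 fell, and of those of oxidative phosphorylation 19 of 75 rose and 19 fell. These shares were near those over all genes (24.6% and 22.2%). Their median log2 fold changes were 0.03 and 0.03, against 0.01 over all genes.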
